A study of Mus musculus with 12 samples.

Results

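The 8 genes described here mark the basal and squamous side of the airway lining. They are Sprr1a, a small proline-rich precursor of the cornified envelope, the basal cell genes Trp63, Krt5, Krt14, Krt15 and Krt17, and the simple epithelial keratin genes Krt8 and Krt18. They were listed by symbol, 8 of 19937 genes with a single symbol, and each was read by 1 probe set. Sprr1a was selected on its measured values, which were higher in the high-dose intranasal (neutrophilic) group, so its levels are a description and no test is given for it. The other 7 were listed by name and were tested.

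Whole lung of Balb/c mice was measured on Affymetrix arrays, 1 array for each mouse and 3 mice in each of 4 groups. Neutrophilic mice received house dust mite (HDM) extract into the nose, 4 times at weekly intervals, with 7.5 DU of each of its allergens, Der f and Der p (DU are development units of the extract). Mixed mice received 0.75 DU of each allergen on that weekly intranasal schedule. Eosinophilic mice received 3 intraperitoneal injections of 0.75 DU of each allergen on 1.5 mg of aluminium hydroxide, on days 0, 7 and 21, and were then challenged intranasally at a similar dose on days 26 to 28. Control mice received PBS alone by the intranasal route. The sources used here state neither ages and sexes nor how much of the airway tree was left on the lung, and all 4 groups were Balb/c without a genetic change. The groups are named after the asthma phenotype given in the labels. Values are log2 intensities after RMA, so a difference of 1 is a doubling.

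Keratins are intermediate filament proteins that assemble as pairs of a type I and a type II chain. Basal cells, the stem cells of the pseudostratified airway, use Krt5 with Krt14 or Krt15 and depend on the transcription factor p63, the product of Trp63; in mice they line the trachea and the largest airways. Luminal airway cells and the alveolar epithelium instead use Krt8 with Krt18. In squamous epithelium, transglutaminases such as the product of Tgm1 cross-link small proline-rich proteins, involucrin and loricrin into an insoluble envelope under the cell membrane.

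The array of eosinophilic mouse 7 stood apart. Against the array-wise median of the 11 others its correlation was 0.356, and its values spread least, with an SD over probe sets of 0.995 log2. Low SDs were also found for neutrophilic mouse 23 (1.51) and eosinophilic mouse 9 (1.52). On the 9 other arrays SDs lay between 1.77 and 2.04, and correlations between 0.956 and 0.980. On the array of mouse 7 the alveolar surfactant gene Sftpc read 7.38, against 12.95 to 14.31 on the other 11, and the club cell gene Scgb1a1 read 7.15, against 12.28 to 13.38. These lung markers were therefore high on 11 of 12 arrays. All 12 arrays entered the fit, and values without mouse 7 are given where stated. The number of arrays limits the precision throughout.

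Sprr1a separated the 3 HDM groups from control mice. It read 8.43, 8.88 and 9.41 in neutrophilic lungs, 8.47, 8.55 and 9.03 in mixed lungs, 5.74, 6.04 and 6.69 in eosinophilic lungs, and 4.30, 4.57 and 4.84 in control lungs. Every neutrophilic and mixed value lay above every eosinophilic value, and every eosinophilic value lay above every control value, while the neutrophilic and mixed values overlapped. As means these were 8.91 ± 0.49 in neutrophilic, 8.68 ± 0.30 in mixed, 6.15 ± 0.49 in eosinophilic and 4.57 ± 0.27 in control lungs (SD, n = 3 each). The neutrophilic mean was 20.2-fold and the mixed mean 17.3-fold the control mean, and the eosinophilic mean 3.00-fold (3.13-fold without mouse 7). The control values lay below the median of each control array (4.94 to 5.08) and no detection calls were used, so these folds may understate a change from a dim level. Over all genes, 12.6% lay wholly higher in neutrophilic than in control lungs, 9.16% in mixed than in control, 11.1% in eosinophilic than in control and 6.91% in mixed than in eosinophilic lungs. Neutrophilic mouse 23, at 8.43, was the lowest of its group, and the highest eosinophilic value came from mouse 8, whose array was not among the 3 of low SD.

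At the same low dose, Sprr1a was higher in mixed than in eosinophilic mice, with a mixed mean 5.77-fold the eosinophilic mean. These groups differed in route, in aluminium hydroxide and in the number and timing of doses, which cannot be told apart here. With 10 times the allergen on the weekly schedule, the neutrophilic mean was 1.17-fold the mixed mean, a difference of 0.23 log2 that was smaller than the SD within either group. The gene was chosen for its high-dose value, and the values show it about as high at the low intranasal dose.

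**Figure D1:**
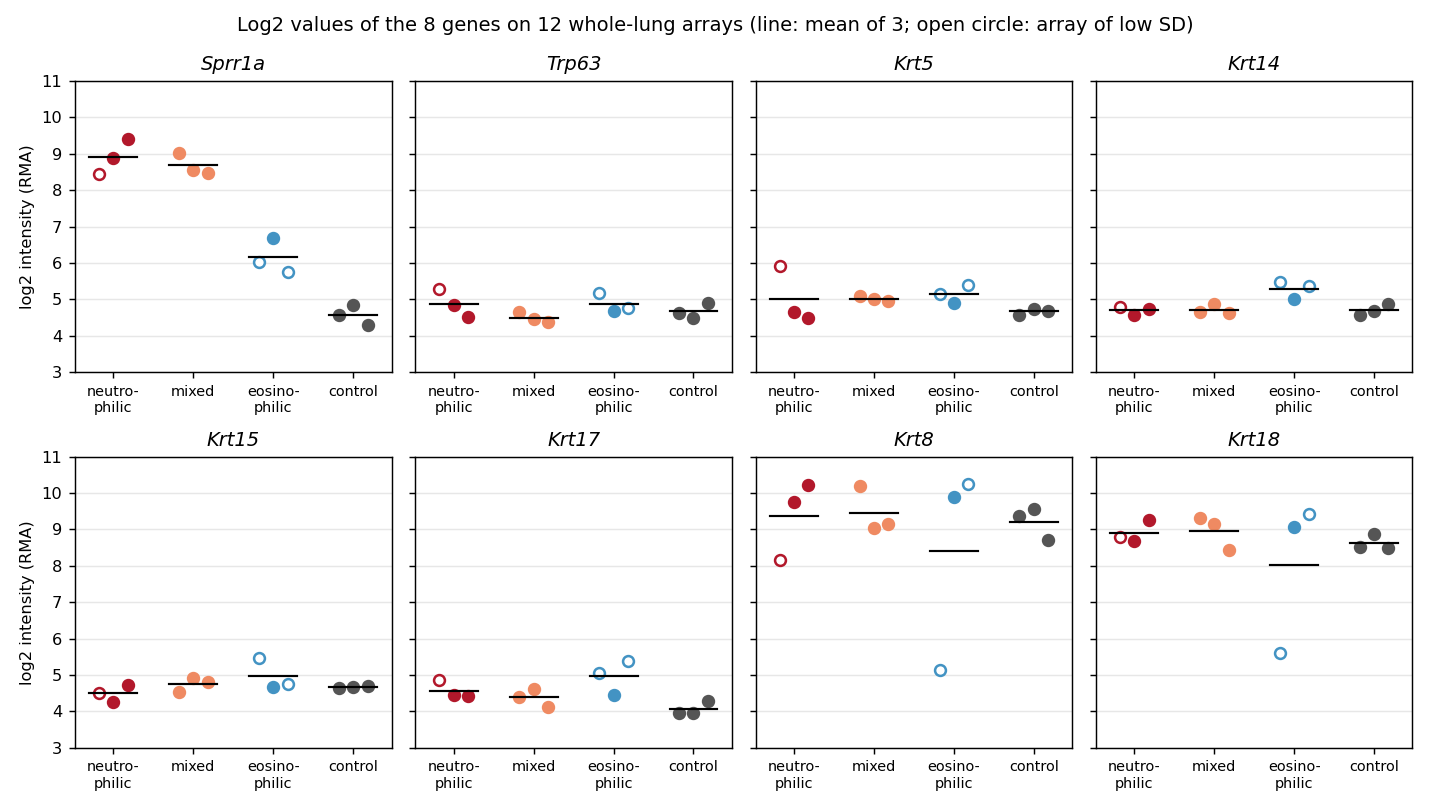
Log2 intensity (vertical axis) of each of the 8 genes on 12 arrays, with neutrophilic, mixed, eosinophilic and control mice from left to right. Points are single mice, lines are means of 3, and open circles are the 3 arrays of low SD. Sprr1a reads 8.43 or more in all neutrophilic and mixed lungs and 4.84 or less in control lungs. The 5 basal cell genes stay under 6 on every array, and Krt8 and Krt18 drop on eosinophilic mouse 7 alone.

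The sequence before the Sprr1a start is shown because its differences between groups were far from those of its family. Below are the 250 bases upstream of the annotated start of Sprr1a, of its nearest paralogue Sprr1b and of Sprr2k, read 5′ to 3′ on the strand of each gene from RefSeq (GRCm38.p6). They lie at chr3:92485882-92486131 (minus strand), chr3:92438780-92439029 (minus strand) and chr3:92432332-92432581 (plus strand). Capitals mark TGAGTCA or its reverse complement TGACTCA, the consensus bound by AP-1 factors (Fos and Jun dimers).
Sprr1a: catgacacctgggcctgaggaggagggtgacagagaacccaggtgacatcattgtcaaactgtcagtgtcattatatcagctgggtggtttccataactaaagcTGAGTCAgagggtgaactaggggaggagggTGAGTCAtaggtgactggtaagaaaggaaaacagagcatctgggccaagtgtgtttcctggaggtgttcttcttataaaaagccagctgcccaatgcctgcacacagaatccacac
Sprr1b: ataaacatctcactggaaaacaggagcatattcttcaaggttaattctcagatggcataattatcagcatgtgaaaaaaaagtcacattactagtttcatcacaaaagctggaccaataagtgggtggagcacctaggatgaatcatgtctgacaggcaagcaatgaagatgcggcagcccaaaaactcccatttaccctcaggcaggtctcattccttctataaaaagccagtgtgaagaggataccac
Sprr2k: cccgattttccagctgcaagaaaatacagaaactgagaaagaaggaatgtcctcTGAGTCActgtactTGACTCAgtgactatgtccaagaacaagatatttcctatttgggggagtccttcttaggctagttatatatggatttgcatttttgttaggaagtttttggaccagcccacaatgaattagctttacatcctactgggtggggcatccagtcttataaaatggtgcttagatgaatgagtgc

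Sprr1a carries 2 matches, at 146 to 140 and 116 to 110 bases before the start, and a TATAAA on the gene's strand at 43 to 38 bases. Over 32851 promoters in the RefSeq table, 4.46% of such 250-base windows held at least 1 match to TGAGTCA on either strand and 0.167% held 2 or more; TATAAA on the gene's strand was in 7.59%. Of 10 other Sprr genes with a promoter in the table, 7 held a match, Sprr2k held 2, and Sprr1b held none. The promoters of Krt5, Krt14, Krt8 and Krt18 in the table held neither motif. Krt15, Krt17 and Trp63 had no entry. A match in the letters is a description of the window and not a mapped site. The Tgm1 promoters in the table held neither motif either. The AP-1 subunit gene Fosl1 read log2 1.46 higher in neutrophilic than in control lungs (SE 0.35, limma, adjusted p = 0.055). In mixed lungs Fosl1 read log2 1.32 higher than in control lungs (adjusted p = 0.157). Both differences passed without mouse 7 (adjusted p = 0.0101 and 0.0344). With the remaining arrays centred on their medians or quantile normalized, the mixed difference did not pass (0.106 and 0.0676). The neutrophilic difference passed in both (0.0362 and 0.028). With mouse 7 kept, the neutrophilic difference did not pass without any 1 control mouse or neutrophilic mouse 24 or 25 (adjusted p up to 0.230). Nor did it with each array centred on its median (0.108) or after quantile normalization (0.136). No other AP-1 subunit gene is given here, and the part of AP-1 factors in the Sprr1a values was not tested.

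The other 11 Sprr genes measured had smaller differences from control in the intranasal groups, and none of them passed in any of the 5 comparisons (limma, adjusted p under 0.05), with all 12 arrays or without mouse 7. At an unadjusted p under 0.05 there were 0 of 11 for neutrophilic against control, 0 for mixed against control and 2 for eosinophilic against control, where 14.7%, 7.95% and 28.2% of all genes had such a p. Without mouse 7 these counts were 2, 1 and 1. Their neutrophilic-minus-control differences ran from 0.09 to 0.89 log2 with a median of 0.30, and their mixed-minus-control differences from 0.05 to 0.86 with a median of 0.20. Sprr1b read 4.598, 5.15 and 5.52 in neutrophilic lungs, 4.78, 4.98 and 4.98 in mixed lungs and 4.51, 4.66 and 4.84 in control lungs, so each of these groups overlapped with another. Sprr2 genes are close copies of each other, so their probe sets may share signal. Probe sets naming several Sprr2a genes were left out.

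The chromosomal neighbours of Sprr1a were also measured. None of its 10 nearest measured genes on either side, which are other Sprr genes, Ivl, Smcp and late cornified envelope genes, passed in any of the 5 comparisons (limma). At an unadjusted p under 0.05 there were 0 of 20 in neutrophilic, 0 in mixed and 5 in eosinophilic against control, and 2, 0 and 2 without mouse 7. Over all genes 14.7%, 7.95% and 28.2% had such a p with all arrays. The 20 neighbours lay between -0.36 and 0.86 log2 for neutrophilic minus control (median 0.29), between 0.04 and 0.46 for mixed minus control (median 0.19), and between -0.27 and 1.58 for eosinophilic minus control (median 0.55, or 0.21 without mouse 7). The Sprr1a differences of 4.34, 4.11 and 1.59 log2 compare with these as values only.

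**Figure D2:**
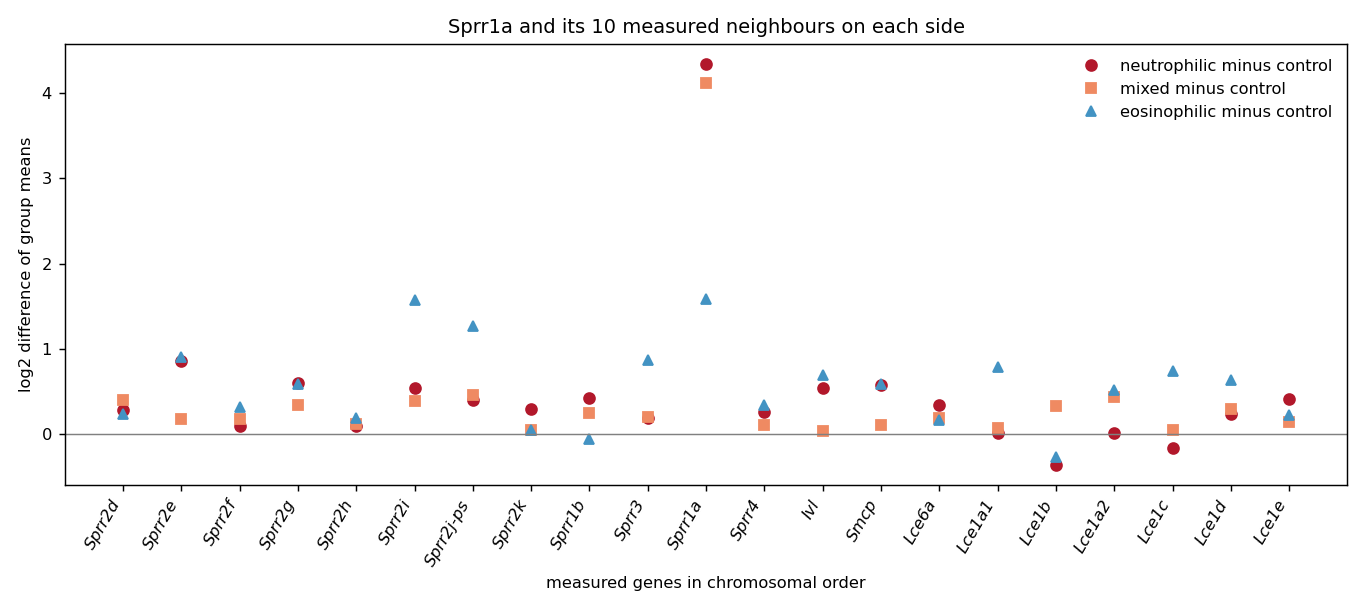
Log2 difference of group means from control (vertical axis) for Sprr1a and the 10 measured genes on each side in chromosomal order (horizontal axis), for neutrophilic (circles), mixed (squares) and eosinophilic (triangles) mice. Sprr1a reaches 4.34 and 4.11 in neutrophilic and mixed mice, and no neighbour exceeds 0.86 in either.

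Within the wider envelope pathway, the gene that moved beside Sprr1a was Tgm1, the membrane transglutaminase that cross-links envelope precursors. Tgm1 read 8.16, 9.46 and 10.01 in neutrophilic lungs, 8.49, 8.56 and 9.12 in mixed lungs, 6.65, 8.06 and 8.13 in eosinophilic lungs, and 5.70, 5.92 and 6.002 in control lungs. All values of each HDM group lay above all control values, as in 12.6% of all genes for neutrophilic, 9.16% for mixed and 11.1% for eosinophilic mice. It rose by log2 3.34 in neutrophilic mice (SE 0.48, limma, adjusted p = 0.00813) and by log2 2.85 in mixed mice (SE 0.48, adjusted p = 0.0244). In eosinophilic mice it measured log2 1.74 (adjusted p = 0.0924), and log2 2.22 without mouse 7 (adjusted p = 0.0258, or 0.0926 with the remaining arrays centred). The neutrophilic call was lost without control mouse 1 or control mouse 2, with adjusted p up to 0.0616. The mixed call was lost on leaving out any control or mixed mouse (adjusted p up to 0.155), and with each array centred on its median (0.116). With mouse 7 left out and the remaining arrays then centred, the neutrophilic and mixed calls passed (adjusted p = 0.00305 and 0.0118).

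Of 38 cornified envelope and squamous differentiation genes measured besides Sprr1a, 1 was higher and 0 were lower in neutrophilic mice, and the same counts held in mixed mice; Tgm1 was that gene in both. Over all genes 2.11% passed for neutrophilic against control (0.662% higher, 1.45% lower) and 0.471% for mixed against control (0.326% higher, 0.145% lower). The list median was 0.25 log2 for neutrophilic minus control and 0.16 for mixed minus control, beside 0.05 and 0.00 over all genes. In eosinophilic mice 0 of 38 passed (limma) and 10 had an unadjusted p under 0.05 (6 without mouse 7), where 28.2% of all genes did with all arrays. The list median there was 0.53 log2 (0.32 without mouse 7), beside 0.01 over all genes. Without mouse 7, Serpinb2, a serine protease inhibitor gene of keratinocytes and macrophages, also passed in neutrophilic mice (log2 1.11, adjusted p = 0.0386) and mixed mice (log2 1.33, adjusted p = 0.0336). Neither Serpinb2 call held when the other 11 arrays were centred (0.113 in both) or quantile normalized (0.197 and 0.121). Scel, which encodes the envelope precursor sciellin, was lower in neutrophilic mice without mouse 7 (log2 -1.42, SE 0.31, adjusted p = 0.0123). Without mouse 7, 9.47% of all genes passed for neutrophilic against control (2.24% higher, 7.23% lower) and 2.99% for mixed against control (1.41% higher, 1.57% lower). The envelope genes Ivl (log2 0.54, adjusted p = 0.483) and Lor (log2 1.01, adjusted p = 0.237) did not pass in neutrophilic mice. Both read highest of their group on the array of mouse 23, with Ivl at 5.20 and Lor at 5.62, and the part of that low-range array in these differences was not tested.

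**Figure D3:**
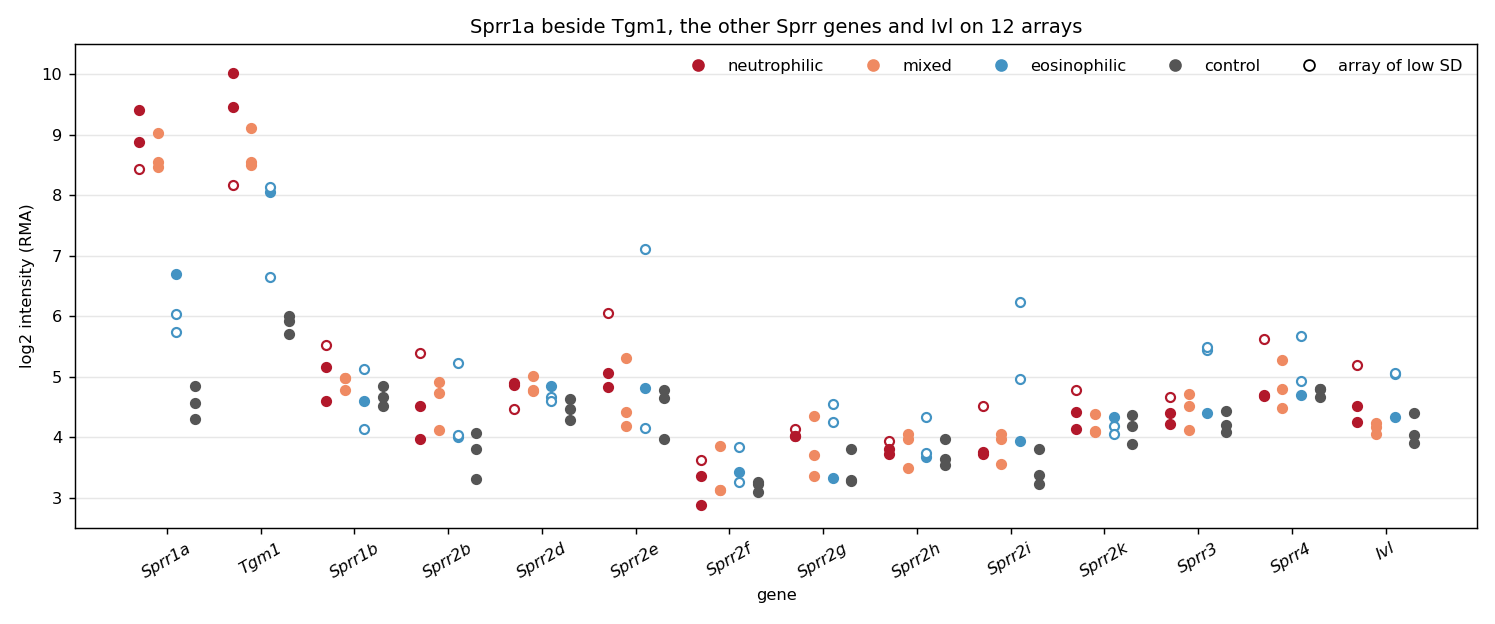
Log2 intensity (vertical axis) of Sprr1a, Tgm1, the other 11 Sprr genes and Ivl (horizontal axis) on 12 arrays, coloured by group in the order neutrophilic, mixed, eosinophilic and control, with open circles for the 3 arrays of low SD. Sprr1a and Tgm1 reach 8.16 or more in all neutrophilic and mixed lungs. Sprr2e reads 7.12 on eosinophilic mouse 7, an open circle.

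The basal cell genes were low on every array. Their 60 values ran from 3.94 to 5.93, and 0 of 60 reached log2 6. Trp63, Krt15 and Krt17 missed a filter of log2 5 or more on at least 3 arrays, which 13370 of 19937 genes passed. Of the 8 genes, 5 passed that filter, and 4 (Krt5, Krt8, Krt18 and Sprr1a) were above the array median on at least 3 arrays. A whole-lung value cannot tell fewer basal cells from less RNA per cell.

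Trp63, the regulator of basal identity, read 4.51, 4.83 and 5.27 in neutrophilic lungs, 4.38, 4.47 and 4.65 in mixed lungs, 4.67, 4.76 and 5.17 in eosinophilic lungs and 4.48, 4.63 and 4.89 in control lungs. All 3 HDM groups overlapped with control. Neutrophilic minus control was 0.20 log2 with a 95% interval of -0.40 to 0.80 (limma, adjusted p = 0.772), and mixed minus control was -0.17 with -0.77 to 0.43. A change of 2-fold in Trp63 signal lies outside both intervals.

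Krt5, the type II keratin of basal cells, read 4.47, 4.64 and 5.93 in neutrophilic lungs, 4.96, 5.003 and 5.10 in mixed lungs, 4.88, 5.15 and 5.39 in eosinophilic lungs and 4.57, 4.68 and 4.74 in control lungs. The mixed and the eosinophilic values lay wholly above control, as in 9.16% and 11.1% of all genes. The neutrophilic spread came from mouse 23. The differences from control were 0.35 in neutrophilic (adjusted p = 0.694), 0.36 in mixed (1) and 0.48 in eosinophilic mice (0.333), none past the threshold in limma.

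Krt14, the type I partner of Krt5, read 4.58, 4.75 and 4.79 in neutrophilic lungs, 4.61, 4.65 and 4.88 in mixed lungs, 5.003, 5.38 and 5.49 in eosinophilic lungs and 4.56, 4.67 and 4.87 in control lungs. Here every eosinophilic value lay above the other 9, where 6.14% of all genes lay wholly lower in mixed than in eosinophilic lungs. The eosinophilic-minus-control difference was 0.59 log2 (SE 0.25, limma, unadjusted p = 0.033, adjusted p = 0.156), and without mouse 7 it was 0.49 (adjusted p = 0.350). Neutrophilic minus control was 0.01 log2 with a 95% interval of -0.53 to 0.54.

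Krt17, a type I keratin of basal and wounded epithelium, read 4.41, 4.44 and 4.85 in neutrophilic lungs, 4.13, 4.40 and 4.62 in mixed lungs, 4.46, 5.05 and 5.39 in eosinophilic lungs and 3.94, 3.95 and 4.28 in control lungs. The neutrophilic and the eosinophilic values lay wholly above control, as in 12.6% and 11.1% of all genes. Eosinophilic minus control was 0.91 log2 (SE 0.30, limma, unadjusted p = 0.0095, adjusted p = 0.115) and neutrophilic minus control 0.51 (adjusted p = 0.492). Krt15, another type I basal keratin, read 4.27, 4.51 and 4.72 in neutrophilic lungs, 4.55, 4.81 and 4.92 in mixed lungs, 4.67, 4.76 and 5.48 in eosinophilic lungs and 4.65, 4.66 and 4.69 in control lungs, with the high value on mouse 7.

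For 7 of the 8 genes, all but Sprr1a, the highest of the 12 values came from 1 of the 3 arrays of low SD (eosinophilic mice 7 and 9 and neutrophilic mouse 23). For the bright Krt8 and Krt18 this was eosinophilic mouse 9. The eosinophilic group holds 2 of these 3 arrays. Without eosinophilic mouse 8, which left those 2, Krt14 and Krt17 passed in eosinophilic against control and in mixed against eosinophilic, in fits that called 8264 and 5979 of all genes. In a fit that took array SD as a covariate, eosinophilic minus control was 0.35 log2 for Krt14 (adjusted p = 0.623) and 0.57 for Krt17 (adjusted p = 0.456).

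Krt8 and Krt18, the filament pair of luminal and alveolar epithelium, were far from the floor on 11 arrays. Krt8 read 8.15, 9.76 and 10.21 in neutrophilic lungs, 9.04, 9.15 and 10.20 in mixed lungs, 5.12, 9.89 and 10.24 in eosinophilic lungs and 8.70, 9.37 and 9.58 in control lungs. Krt18 read 8.68, 8.80 and 9.26 in neutrophilic lungs, 8.45, 9.14 and 9.31 in mixed lungs, 5.59, 9.07 and 9.42 in eosinophilic lungs and 8.48, 8.51 and 8.87 in control lungs. The values of 5.12 and 5.59 both came from mouse 7, and the groups otherwise overlapped except that the remaining eosinophilic mice lay above control for both genes, as 14.6% of all genes did without mouse 7.

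Neither keratin of the pair passed in any comparison. Krt8 differed from control by 0.16 log2 in neutrophilic mice (95% interval -2.13 to 2.45, limma, adjusted p = 0.956) and by 0.25 in mixed mice (-2.04 to 2.54, adjusted p = 1). Without mouse 7 the intervals were -0.85 to 1.17 in neutrophilic and -0.77 to 1.26 in mixed mice for Krt8, and -0.32 to 0.90 and -0.26 to 0.95 for Krt18, at the same differences. The sign of the eosinophilic difference rested on that array. Krt8 measured -0.80 with all arrays and 0.85 without mouse 7 (SE 0.53, adjusted p = 0.425), and Krt18 -0.59 and 0.62 (SE 0.32, adjusted p = 0.336).

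**Figure D4:**
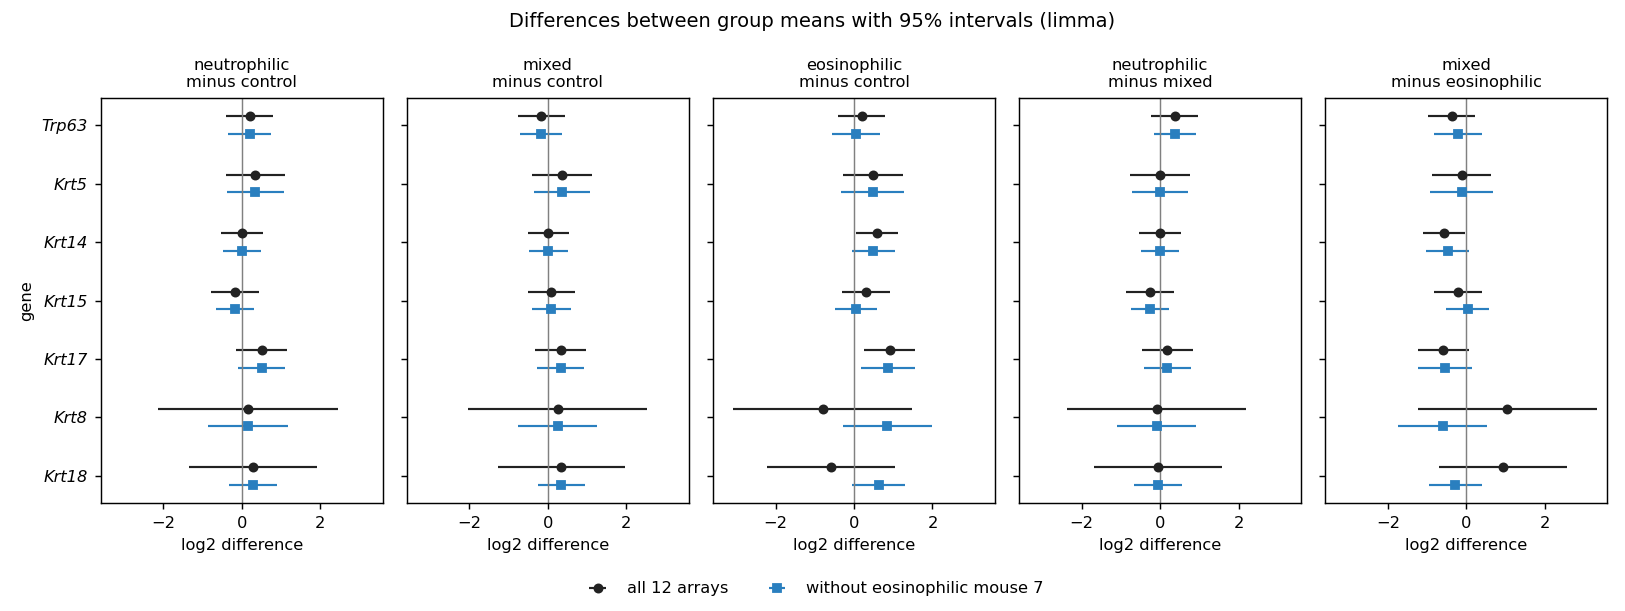
Log2 differences of group means with 95% intervals (horizontal axis) for the 7 tested genes (vertical axis) in 5 comparisons, with all 12 arrays (black circles) and without eosinophilic mouse 7 (blue squares). The Krt8 and Krt18 intervals narrow without mouse 7, and their eosinophilic-minus-control values change sign. With all arrays the Krt14 and Krt17 intervals lie above 0 in eosinophilic minus control and the Krt14 interval lies below 0 in mixed minus eosinophilic. Without mouse 7 only the Krt17 interval in eosinophilic minus control excludes 0, and none of these passes after adjustment.

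Across the 7 tested genes, 0 passed in any of the 5 comparisons, with all 12 arrays or without mouse 7 (limma). With all arrays, unadjusted p was under 0.05 for 2 of 7 in eosinophilic against control, 1 of 7 in mixed against eosinophilic and 0 of 7 in the other 3 comparisons. Without mouse 7 it was under 0.05 for Krt17 alone, in eosinophilic against control. Such a p was found in 28.2% of all genes for eosinophilic against control, 16.7% for mixed against eosinophilic, 14.7% for neutrophilic against control, 7.95% for mixed against control and 3.10% for neutrophilic against mixed. After adjustment 0.497% of all genes passed for eosinophilic against control, 0.00502% for mixed against eosinophilic and 0% for neutrophilic against mixed, and without mouse 7 these shares were 1.33%, 0.0502% and 0%. The median difference of the 7 genes was 0.20 log2 for neutrophilic minus control, 0.25 for mixed minus control and 0.30 for eosinophilic minus control, beside 0.05, 0.00 and 0.01 over all genes. For the dose step, neutrophilic minus mixed, it was -0.01, beside 0.02 over all genes.

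Among 52 keratin genes measured in the clusters of chromosomes 11 and 15, 1 passed the threshold with all 12 arrays. This was Krt23, a type I keratin of simple epithelia, which was lower in neutrophilic and in mixed mice. Over all genes 2.11% passed for neutrophilic against control (1.45% lower) and 0.471% for mixed against control (0.145% lower). A count of 1 in 52 therefore says little about keratins as a set. Krt23 read 4.57, 4.65 and 4.95 in neutrophilic lungs, 3.99, 4.39 and 4.53 in mixed lungs, 5.10, 5.27 and 5.29 in eosinophilic lungs and 5.40, 6.40 and 6.52 in control lungs. Every HDM value lay below every control value, as in 20.4% of all genes for neutrophilic, 13.9% for mixed and 15.9% for eosinophilic against control. Krt23 fell by 1.38 log2 in neutrophilic mice (SE 0.32, limma, adjusted p = 0.0464) and by 1.80 in mixed mice (SE 0.32, adjusted p = 0.0280). Both calls were lost on leaving out any mouse of the tested model, control mouse 1 or control mouse 2 (adjusted p up to 0.235 and 0.213). Neither passed with each array centred on its median (0.0736 and 0.0718) or after quantile normalization (0.0865 and 0.0779). With mouse 7 left out first, both passed when the arrays were centred (adjusted p = 0.0245 and 0.0194). Both also passed when those arrays were quantile normalized (0.01 and 0.00708).

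Krt80, a type II keratin of differentiating epithelium, was lower without mouse 7 in neutrophilic mice (log2 -1.04, adjusted p = 0.0386) and mixed mice (log2 -1.15, adjusted p = 0.0494), and did not pass with all arrays (0.184 and 0.271). Without mouse 7 and with quantile normalization neither passed (0.171 and 0.102). Krt7, a type II keratin of simple epithelia, read 8.19, 8.59 and 9.01 in neutrophilic lungs, against 9.09, 9.42 and 9.67 in control lungs (log2 -0.80, adjusted p = 0.663, and 0.104 without mouse 7). Its neutrophilic values all lay below control, as in 20.4% of all genes. Krt19, also a type I keratin of simple epithelia, measured -0.68 in neutrophilic mice (adjusted p = 0.721). Of 14 squamous and hyperproliferation keratins, including Krt6a, Krt6b, Krt13 and Krt16, 0 passed in any of the 5 comparisons with all 12 arrays (limma), and 1 in neutrophilic, 1 in mixed and 4 in eosinophilic against control had an unadjusted p under 0.05 (3, 1 and 3 without mouse 7). Over all genes 14.7%, 7.95% and 28.2% had such a p with all arrays. The mean level of these 14 keratins per array ran from 4.44 to 5.04 in neutrophilic, 4.39 to 4.55 in mixed, 4.45 to 5.54 in eosinophilic and 4.47 to 4.53 in control lungs.

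Genes of basal adhesion and niche were mostly short of the threshold. Of 27 measured, 1 was higher and 1 lower in neutrophilic mice, and 1 was higher and 0 lower in mixed mice. Over all genes 0.662% were higher and 1.45% lower in neutrophilic mice, and 0.326% and 0.145% in mixed mice. In eosinophilic mice 0 passed (limma) and 12 had an unadjusted p under 0.05, where 28.2% of all genes did. Sfn, the epithelial 14-3-3 protein stratifin, was the higher gene in both. It read 7.14, 7.57 and 7.70 in neutrophilic lungs, 6.86, 7.01 and 7.31 in mixed lungs, 6.54, 6.81 and 7.23 in eosinophilic lungs and 5.33, 5.60 and 5.72 in control lungs. All HDM values lay above all control values, as in 12.6% of all genes for neutrophilic, 9.16% for mixed and 11.1% for eosinophilic mice. Sfn rose by log2 1.92 in neutrophilic mice (SE 0.28, limma, adjusted p = 0.00813) and by log2 1.51 in mixed mice (SE 0.28, adjusted p = 0.0385). The neutrophilic call was lost without control mouse 1, control mouse 2 or neutrophilic mouse 25 (adjusted p up to 0.0729), and the mixed call without any control or mixed mouse (up to 0.256). A second probe set of Sfn was dimmer on most arrays, and the mean of both did not pass in mixed mice (adjusted p = 0.147). After quantile normalization neither call held (0.0919 in neutrophilic, 0.51 in mixed mice), nor did the mixed call with each array centred on its median (0.0848). These scalings included mouse 7. With mouse 7 left out first, both calls passed after quantile normalization (adjusted p = 6.11e-05 and 0.00112). Both also passed with the remaining arrays centred (0.00448 and 0.0259).

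Snai2, a transcription factor gene of basal and mesenchymal cells, read 4.07, 5.08 and 5.73 in neutrophilic lungs, against 6.98, 6.98 and 7.12 in control lungs. It fell by 2.07 log2 (SE 0.39, limma, adjusted p = 0.0203). That call was lost without any 1 control mouse or neutrophilic mouse 25 (adjusted p up to 0.111), with each array centred on its median (0.0542) and after quantile normalization (0.0724). With mouse 7 left out first, it passed with the arrays centred (adjusted p = 0.0168) and quantile normalized (0.0112). Without mouse 7, Aqp3, a water and glycerol channel gene of basal cells, passed as higher in neutrophilic mice (log2 1.01, adjusted p = 0.0301, and 0.0927 with all arrays). Lama3, a chain of the basement membrane protein laminin-332, passed as lower in all 3 HDM groups without mouse 7. It measured log2 -1.25 in neutrophilic (adjusted p = 0.018), -1.23 in mixed (0.04) and -1.45 in eosinophilic mice (0.0499), against adjusted p of 0.131, 0.275 and 0.0572 with all arrays. With the 11 arrays centred, the mixed (0.11) and eosinophilic (0.106) Lama3 calls were lost. The hemidesmosome genes Itga6 and Itgb4 and the basal cell receptor gene Ngfr did not pass in any comparison.

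Genes of damage-associated transitional epithelium, a state in which alveolar cells carry Krt8, were taken as a further list. It includes Krt8 and Krt18 themselves and Sfn. Of 19 measured, 1 was higher and 0 lower in neutrophilic mice, and likewise in mixed mice, with medians of 0.83 and 0.68 log2, where 0.662% and 0.326% of all genes were higher. In eosinophilic mice 0 passed (limma), 4 had an unadjusted p under 0.05 (28.2% of all genes did), and the median was -0.48 log2 (0.23 without mouse 7). Without mouse 7, 6 were higher in neutrophilic and 4 in mixed mice, where 2.24% and 1.41% of all genes were. The 4 in mixed mice were Cldn4, Fosl1, Nupr1 and Sfn. With the 11 arrays centred, Sfn still passed in mixed mice (adjusted p = 0.0259). Cldn4 (0.146), Fosl1 (0.106) and Nupr1 (0.0638) did not. With the 11 arrays quantile normalized, of the 4 only Fosl1 did not pass (0.0676). Alveolar type 1 markers were lower beside this list: 2 of 9 passed in neutrophilic and 0 in mixed mice with all arrays, and 6 and 3 without mouse 7. Their medians were -1.12 and -1.09 log2, and 8 and 7 of 9 lay wholly below control. Over all genes 1.45% and 0.145% passed as lower (7.23% and 1.57% without mouse 7), and 20.4% and 13.9% lay wholly below control. Lower levels were not particular to type 1 markers. The mean over 8 endothelial genes ran from 7.79 to 8.34 in neutrophilic, 7.95 to 8.48 in mixed and 9.63 to 9.88 in control lungs. Alveolar type 2 means overlapped with control in both groups. Cldn4, a tight junction claudin of the injured alveolus, read 7.41, 8.36 and 9.51 in neutrophilic lungs, 7.42, 8.02 and 8.27 in mixed lungs, 4.23, 5.30 and 6.42 in eosinophilic lungs and 6.02, 6.10 and 6.16 in control lungs. Its neutrophilic-minus-control difference was log2 2.33 (SE 0.56, limma, adjusted p = 0.0535), and it passed without mouse 7 (adjusted p = 0.00622). Nupr1, a stress-induced chromatin protein gene, measured log2 1.68 (adjusted p = 0.142, and 0.00609 without mouse 7). Clu, a secreted chaperone gene, and Plaur, the urokinase receptor gene, passed in neutrophilic mice without mouse 7 (log2 1.21, adjusted p = 0.029, and log2 2.16, adjusted p = 0.0171), and not with all arrays (0.230 and 0.170) or with the 11 arrays centred (0.102 and 0.0629). With Sfn and Fosl1 these are the 6. Krt7, Krt19, Cdkn2b and Itgb6 of this list had lower means in neutrophilic than in control lungs. These means were 8.60 against 9.40, 7.97 against 8.65, 6.23 against 7.13 and 7.65 against 7.94. The other measured members had neutrophilic means above control. Beside this list, the 10 pan-epithelial genes such as Epcam and Cdh1 had 0 past the threshold with all arrays and a median of -0.18 log2 for neutrophilic minus control. At an unadjusted p under 0.05 there were 1 in neutrophilic and 4 in mixed against control, and 6 and 5 without mouse 7. Over all genes 14.7% and 7.95% had such a p with all arrays. Without mouse 7 the protease gene Prss8 was lower in neutrophilic (log2 -1.98, adjusted p = 0.0133) and mixed mice (log2 -2.06, adjusted p = 0.0232, or 0.0766 with the 11 arrays centred).

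Markers of tissues that carry squamous keratins were read beside Sprr1a. The mean over 10 oesophagus and skin genes ran from 4.13 to 4.73 in neutrophilic, 4.03 to 4.32 in mixed, 4.14 to 5.51 in eosinophilic and 3.97 to 4.08 in control lungs, and 0 of 10 passed, with 1 in neutrophilic, 0 in mixed and 5 in eosinophilic against control at an unadjusted p under 0.05 (2, 0 and 2 without mouse 7). Over all genes 14.7%, 7.95% and 28.2% had such a p with all arrays. The eosinophilic median of the 10 genes was 0.85 log2 (0.42 without mouse 7). All 10 are also in the envelope or squamous keratin lists. Krt4 and Krt13, the keratin pair of oesophagus, did not exceed 4.56 in neutrophilic or 4.54 in mixed lungs. The mean over 8 thymic genes ran from 4.31 to 4.86 in neutrophilic, 4.37 to 4.65 in mixed, 4.39 to 5.13 in eosinophilic and 4.35 to 4.45 in control lungs, with 0 of 8 past the threshold. The part of admixed tissue in the Sprr1a values was not tested beyond these levels.

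Markers of several cell types, neutrophils and goblet cells among them, were higher than control in the groups where Sprr1a was high. Of 11 neutrophil markers, 5 were higher in neutrophilic mice and 1 in mixed mice (8 and 8 without mouse 7), and the others did not pass. Their mean ran from 7.19 to 8.41 in neutrophilic, 7.56 to 8.12 in mixed, 5.80 to 7.23 in eosinophilic and 5.46 to 6.05 in control lungs. Of 9 goblet cell markers, 4 were higher in neutrophilic and 4 in mixed mice (6 and 6 without mouse 7). Their mean ran from 7.67 to 7.72 in neutrophilic, 7.82 to 8.02 in mixed, 5.40 to 7.25 in eosinophilic and 4.77 to 5.13 in control lungs. Both sets of means were thus above control in every neutrophilic and mixed lung. Over all genes 0.662% were higher in neutrophilic and 0.326% in mixed mice (2.24% and 1.41% without mouse 7). The part of any of these cell types in the Sprr1a values was not tested.

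None of the 5 genes whose profile lay nearest to Sprr1a was in the envelope list. Likeness was the root mean square distance over the 12 arrays between log2 values, each gene counted from its own control mean, among 18260 genes. The nearest were the neutrophil chemoattractant gene Cxcl5 at 0.53 log2, the metallothionein gene Mt1 at 0.55, the metalloreductase gene Steap4 at 0.60, the cystine transporter gene Slc7a11 at 0.60 and the interleukin 1 receptor antagonist gene Il1rn at 0.68. Mt1 averaged 12.15 in neutrophilic, 12.09 in mixed, 9.37 in eosinophilic and 7.94 in control lungs, the same order as Sprr1a. Cxcl5, Steap4, Slc7a11 and Il1rn had higher means in mixed than in neutrophilic lungs. All 5 were picked by likeness to Sprr1a on these arrays, so the likeness is a description. Without mouse 7, 4 of these 5 were again among the nearest 5. For Krt8 the nearest were Atp6v0a1, Pgd, Rplp0, Wsb2 and Nploc4, at 0.34 to 0.40 log2, and 1 of the 5 (Pgd) was again among them without mouse 7.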

How the data were processed

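RNA of whole lung from 12 mice was labelled with biotin, starting from 300 ng, and hybridised to Affymetrix arrays, per the labels. The authors deposited a log2 intensity for each probe set, and the submitters' processing notes name RMA and Affymetrix Expression Console without a version. That the scale is log2 was inferred from the span of the values. RMA brings arrays to 1 probe distribution, and the SDs still differed between arrays. No detection calls were used.

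Of 34760 probe sets, 21640 had 1 gene symbol in the platform annotation, 1321 had several and 11799 were not listed. Each gene was read from its brightest probe set by mean over the 12 arrays, which gave 19937 genes. A linear model with a mean per group was fitted in R 4.3.3 with limma 3.58.1 (lmFit, eBayes) over all 4 groups, and p values of contrasts were adjusted over all genes (Benjamini-Hochberg), two-sided, with adjusted p under 0.05 as the threshold. P values measure spread between mice. The fit was tested on simulated data. No batch is given in the labels.

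The genes, the lists and the rule for naming genes were chosen with earlier results of these data known. Named were the 8 genes, members of the epithelial lists past the threshold or with the smallest p, and the 5 nearest profiles of Sprr1a and Krt8. The neighbours of Sprr1a, the promoter motifs and the tissue markers picked out by name (Sftpc, Scgb1a1, Krt4, Krt13, Ivl, Lor, Krt7, Krt19) were chosen after the values were seen. Symbols and sequences come from RefSeq tables of GRCm38.p6. Alternatives were filters on dim genes, other scalings, other variance models, other probe set rules and leaving out arrays.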

Additional observations from a re-analysis of the deposited data

How the results depend on the processing

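No paired analysis was possible because the replicate numbers of the 4 groups are not shared. The count of the 7 tested genes past the threshold was 0 in 86 of 88 counts, with 1 count for each comparison under each alternative setting. It was 2 (Krt14 and Krt17) for eosinophilic against control and 2 for mixed against eosinophilic, both without eosinophilic mouse 8, a fit that left the 2 low-range arrays for that group and called 8264 and 5979 of all genes. Leaving out each array in turn therefore gave counts of 0 to 2 in these comparisons and 0 in the others. Of 669 alternative values of single genes among the 8, 87 changed sign, and none of those was past the threshold before or after. The Sprr1a difference ranged from 4.09 to 4.58 log2 for neutrophilic minus control, 3.74 to 4.25 for mixed minus control, 1.32 to 2.12 for eosinophilic minus control, 1.99 to 2.79 for mixed minus eosinophilic, and -0.03 to 0.46 for neutrophilic minus mixed. With arrays centred on their medians, the gene-wide median was -0.24 log2 for eosinophilic minus control (0.01 uncentred) and 0.19 for mixed minus eosinophilic. Settings that first left out mouse 7 and then centred or quantile normalized the arrays were chosen after seeing the data and gave 0 of 7. Trp63, Krt15 and Krt17 were read near the dim end of the arrays, and no detection calls were used.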
